A study of Mus musculus with 64 samples.

Results

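The comparison described here is that of Cyfip2 knock-in (KI) with wild-type (WT) frontal cortex at postnatal week (PWK) 14. Its members are all genes of the deposited table, of which 18367 of 18432 had a mean of at least 1 normalized count over its 8 libraries and were tested. KI mice were heterozygous for a point mutation that puts cysteine in place of arginine 87 of CYFIP2, on a C57BL/6N background, and WT mice were their littermates without it. The mutation is a germline edit carried by every cell and serves as a mouse model of West syndrome, an infantile epileptic encephalopathy. Each group held 4 mice, numbered KI1 to KI4 and WT1 to WT4, and each library was 1 mouse's frontal cortex, taken untreated in the afternoon and sequenced as bulk RNA. The whole series held 64 libraries in 16 groups, with hippocampus as the other region and PWK 1, 7 and 28 as the other ages.

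CYFIP2 is a subunit of the WAVE regulatory complex. This complex keeps WAVE proteins inactive until the GTPase Rac binds it, and WAVE then drives the Arp2/3 complex to build branched actin, the scaffold of dendritic spines. Arginine 87 lies in the part of CYFIP2 that holds WAVE inactive, and CYFIP proteins also bind the translational repressor FMRP. In cortical neurons, seizures and changes in firing are known to act within minutes to hours on immediate early genes and over days on neuropeptides, channels and glial genes.

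Values are normalized counts, which are estimated read counts per gene divided by a size factor for each library, and totals ran from 30768654 to 32039228 per library. Projection neuron markers Slc17a7, Tbr1, Cux2 and Fezf2 were present in all 8 libraries, as was the Y-linked gene Ddx3y at 1423, 995, 863 and 1114 in KI and 1286, 1272, 1349.8 and 1048 in WT, although the study used both sexes. Several libraries stood apart. KI1 was the highest of the 8 libraries in 22.3% of genes and the lowest in 22.8%, against 8.05% to 15.3% for the others, and it was the highest in 17 of 25 immediate early transcription factors and 19 of 33 reactive astrocyte genes. KI2 was the lowest in 15 of those 25 and the highest in 17 of 18 striatal neuron genes, with Drd2, a dopamine receptor of striatal neurons, at 30.4, 554, 34.6 and 31.1 in KI and 50.8, 36.2, 99.1 and 58.8 in WT. Eomes, a gene of olfactory bulb neurons, was at 0.96, 4.41, 65.9 and 4.07 in KI and 8.09, 1.29, 99.3 and 2.69 in WT, high in KI3 and WT3. Summed myelin genes ranged from 104070 to 205990 in KI and from 126740 to 206920 in WT. Counts of the main lists are therefore also given below without KI1 and KI2, a choice made after the data were seen.

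In KI frontal cortex at PWK 14 genes of GABA synthesis (Gad1, Gad2), the secreted synaptic organizer Nptx2 and some genes of reactive astrocytes (Gfap) were higher, and some genes of postsynaptic scaffolds (Shank1, Homer2), Camk2 signalling (Camk2a) and the vessel wall (Cldn5, Flt1), with the channel partners Fgf13 and Kcnip2, were lower. Neuropeptide genes changed both ways (Npy and Chgb higher, Cartpt and Grp lower). Across all genes, 455 rose in KI, which is 2.48% of those tested, and 496 fell, which is 2.70%. These 951 genes with an adjusted p under 0.05, called DEGs below, had a median absolute log2 fold change of 0.53, and 138 of them rose and 47 fell by at least 2-fold. Of the DEGs, 902 were protein-coding and 24 were long intergenic RNAs. All 4 KI libraries lay above all 4 WT libraries in 6.64% of genes and below them in 7.51%. Of the 951 DEGs, 939 did not overlap between groups, so a lack of overlap adds little to a call. Scaling all libraries to equal totals in place of the deposited size factors moved the median of all genes from -0.0018 to 0.030 and the split of DEGs to 541 higher and 355 lower, from 47.8% to 60.4% higher. The number of DEGs depended on single libraries, with 431 without KI2 and 339, 424, 468 and 531 without WT1, WT2, WT3 and WT4. With KI1 and KI2 both left out, 408 genes were called, 355 of them among the 951 and in the same direction, and 0 of the 951 changed sign. Of the 178 DEGs given below with values, 105 were called in all 8 fits that leave out 1 library and 119 without KI1 and KI2. Of the genes named at the head of this paragraph, Gad1, Camk2a and Shank1 were not called without KI1 and KI2, and the others were. Gad1, Gad2, Camk2a and Shank1 were called in 3, 5, 4 and 6 of those 8 fits. Kcnip2, Npy and Grp were called in 2, 4 and 4, and the rest in all 8.

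**Figure D1:**
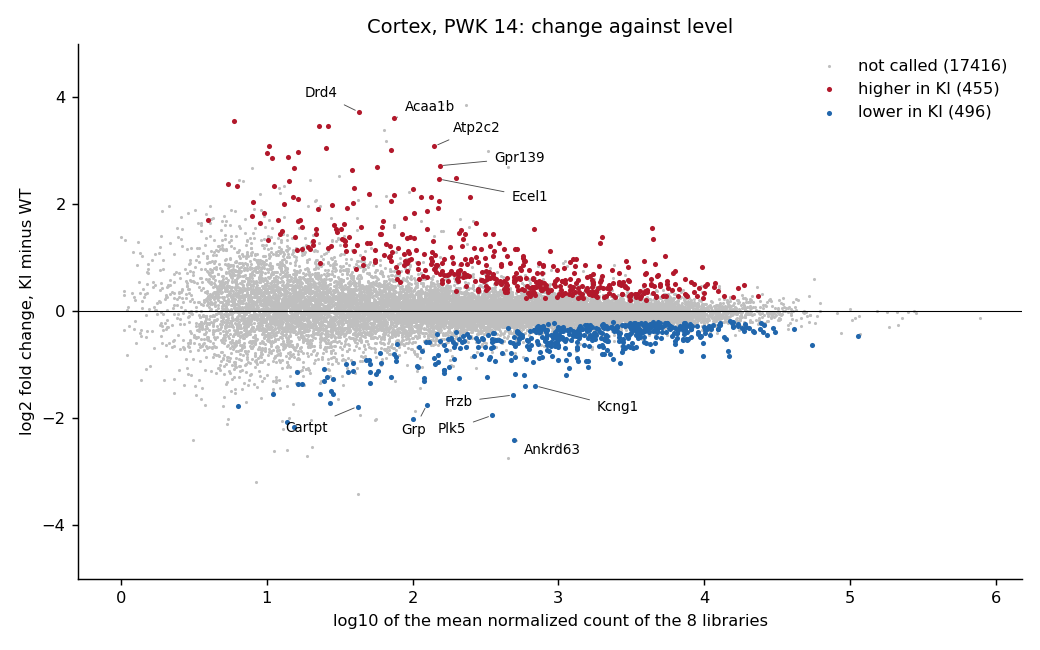
Mean normalized count of the 8 libraries (x axis, log10 scale) against the log2 fold change KI minus WT (y axis) for the 18367 genes tested. Each point is a gene, coloured where its adjusted p was under 0.05 (455 higher, 496 lower), and names mark some of the protein-coding DEGs with the largest fold changes. The axis ends at a log2 fold change of 5 either way, which leaves out 3 genes, and the named rises exceed the named falls.

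Cyfip2 itself lies on chromosome 11. It was at 28584, 33140.3, 38683 and 33633 in KI and 42735, 44053, 40443 and 39966 in WT, so all 4 KI values were under the lowest WT value. The difference, -0.33 ± 0.086 (log2 fold change, KI minus WT, ± SE), did not pass the test (adjusted p = 0.0539, limma with Benjamini-Hochberg adjustment over all genes). Below, a value given with ± is this log2 fold change and its SE. The sequence is shown because the mutation falls on it. The reference reads CGC, an arginine codon, at codon 87, in exon 4 of 31 of all 3 coding transcripts that hold it (GRCm38, chr11:46286091-46286093, minus strand). The window of 63 bases spans 2 exons between positions 46284253 and 46286123 and marks codon 87 in capitals:
Cyfip2 codon 87: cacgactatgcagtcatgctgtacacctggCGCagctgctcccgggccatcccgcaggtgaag
The paralog Cyfip1 was at 2551, 2609.9, 2503 and 2509 in KI and 2181, 2282, 2346 and 2352 in WT (log2 fold change 0.15 ± 0.050, adjusted p = 0.11). Of the 18 genes listed for the WAVE complex and Rac, 0 rose and 0 fell, with a median log2 fold change of -0.050. Among Arp2/3 subunits, cofilins and actin binders, 2 of 46 rose (4.35%) and 3 fell (6.52%), against 2 higher and 1 lower without KI1 and KI2. The risers were Tmsb10, an actin monomer binder (log2 fold change 0.49 ± 0.059, adjusted p = 0.00208), and Myh9, a non-muscle myosin heavy chain (log2 fold change 0.50 ± 0.077, adjusted p = 0.00627), and the fallers were Gap43, a growth cone protein (log2 fold change -0.57 ± 0.093, adjusted p = 0.00814), Marcks and Actn4. Actb (0.23 ± 0.075, adjusted p = 0.111) and Cfl1 (0.18 ± 0.068, adjusted p = 0.166) did not pass. Of the regulators of small GTPases, 1 of 40 rose (2.5%) and 4 fell (10%), against 1 higher and 3 lower without KI1 and KI2. Pak6, a kinase of the PAK family, was at 1344, 1386, 1935 and 1908 in KI and 2654, 2701, 2699 and 2699.9 in WT (log2 fold change -0.73 ± 0.12, adjusted p = 0.00662). Arhgap33 fell (-0.56 ± 0.083), Rhou rose (0.50 ± 0.066), and the exchange factors Tiam1 (-0.0088 ± 0.086) and Trio (0.022 ± 0.047) did not pass.

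The largest rises among protein-coding DEGs were in genes with low WT levels. Drd4, a dopamine receptor that couples to inhibitory G proteins, was at 125, 86.1, 51.6 and 58.5 in KI and 2.27, 6.54, 6.72 and 4.79 in WT (log2 fold change 3.73 ± 0.36, adjusted p = 0.000725). Acaa1b, a peroxisomal thiolase of fatty acid oxidation, was at 146, 230.5, 78.8 and 100.1 in KI and 10.5, 14.6, 7.13 and 7.48 in WT (log2 fold change 3.61 ± 0.34, adjusted p = 0.000656). Atp2c2, a Golgi calcium and manganese pump, was at 426, 284, 163 and 148 in KI and 33.2, 20.1, 33.7 and 21.7 in WT (log2 fold change 3.09 ± 0.32, adjusted p = 0.00117). In each of these genes the lowest KI library was several times the highest WT library, and KI1 or KI2 was the highest. Ecel1, a membrane peptidase induced by nerve injury, varied least among them, at 305, 229, 267 and 227 in KI and 44.1, 62.7, 43.8 and 33.9 in WT (log2 fold change 2.47 ± 0.19, adjusted p = 0.000197). Gpr139, an orphan G protein-coupled receptor, was at 184, 495, 188 and 207 in KI and 28.3, 44.7, 56.6 and 23.6 in WT (log2 fold change 2.72 ± 0.35, adjusted p = 0.00283), and Htra4, a serine protease, was at 152, 226, 157 and 139 in KI and 35.6, 24, 37.4 and 37.7 in WT (log2 fold change 2.28 ± 0.20, adjusted p = 0.000507). KI2 was the highest library in both genes, and the rule that named them required that groups not overlap. Slc22a2, an organic cation transporter, rose by 2.30 ± 0.25, Agmat, an agmatinase, by 2.19 ± 0.34, and Gldn, an adhesion protein of nodes of Ranvier, by 2.18 ± 0.31. Other risers spread more among the KI libraries, with KI1 the highest. Ppm1j, a protein phosphatase, was at 361, 91, 46.2 and 28.3 in KI and 5.94, 8.71, 14.5 and 9.46 in WT (log2 fold change 3.01 ± 0.63, adjusted p = 0.0234), Atp2a1, a calcium pump of the endoplasmic reticulum, at 219, 127, 49.9 and 17.7 in KI and 9.96, 7.71, 12.8 and 10.4 in WT (log2 fold change 2.70 ± 0.61, adjusted p = 0.0314), and Cd28, known as a T cell costimulatory receptor, at 134, 48.6, 70.7 and 18.5 in KI and 11.6, 11.6, 6.08 and 4.45 in WT (log2 fold change 2.64 ± 0.53, adjusted p = 0.0191). With KI1 and KI2 left out their adjusted p-values were 0.0462, 0.13 and 0.104.

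Among the protein-coding DEGs named by size, falls were smaller than rises. Ankrd63, an ankyrin repeat protein, was at 30.2, 384, 257 and 149 in KI and 826, 796, 749 and 743 in WT (log2 fold change -2.40 ± 0.59, adjusted p = 0.0418), lowest in KI1, and Plk5, a brain polo-like kinase, was at 58.8, 179, 220.2 and 164 in KI and 593, 484, 508 and 591 in WT (log2 fold change -1.95 ± 0.33, adjusted p = 0.00886). The same rule required no overlap between groups in these genes. Frzb, a secreted Wnt inhibitor, was at 124, 181, 426 and 336 in KI and 655, 806, 662 and 714 in WT (log2 fold change -1.56 ± 0.31, adjusted p = 0.0191), with KI3 and KI4 nearer WT than KI1 and KI2. Kcng1, a modulatory potassium channel subunit, was at 372, 362, 473 and 324 in KI and 1137, 1076, 884 and 914 in WT (log2 fold change -1.39 ± 0.12, adjusted p = 0.000507). The other fallers among the 12 largest were the nuclear receptors Nr4a2 and Nr4a3, the peptide genes Cartpt and Grp and the calcium sensor Otof, described with their groups, and Nckap5 (-1.29 ± 0.22), Vwa5b1 (-1.25 ± 0.22) and Olfr78, an olfactory receptor (-1.24 ± 0.26). Diras2 and Spred3 shared the smallest adjusted p among protein-coding genes and changed less. Diras2, a small GTPase of neurons, was at 6598, 7198, 7462 and 6799 in KI and 12360.1, 12856, 11777 and 12871 in WT (log2 fold change -0.83 ± 0.057, adjusted p = 9.12e-05), and Spred3, an inhibitor of Ras to MAP kinase signalling, was at 1493, 1398, 1480.4 and 1428 in KI and 2472, 2658, 2546 and 2421 in WT (log2 fold change -0.80 ± 0.054, adjusted p = 9.12e-05).

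Immediate early genes, which firing induces within minutes, moved in no common direction. Of the list, 3 of 25 rose (12%) and 3 fell (12%), against 2 higher and 3 lower without KI1 and KI2, and its median log2 fold change was -0.056. Fos was at 5303, 129, 372 and 506 in KI and 450.1, 672, 860.3 and 802 in WT, with KI1 above and KI2 and KI3 below every WT library (log2 fold change -0.17 ± 0.85, adjusted p = 0.94). Npas4 was at 8654, 338, 549 and 512 in KI and 433, 1130.3, 1541 and 1319 in WT and Arc at 15798, 2069, 3133 and 4508 in KI and 3588, 5157, 6101 and 7122 in WT, again highest in KI1, and Egr1 was at 11919, 2707, 5481 and 5486 in KI and 7299, 8910.1, 8399.7 and 7525 in WT (log2 fold change -0.52 ± 0.33, adjusted p = 0.416). The fallers were a separate set that was low in all 4 KI libraries, KI1 included. Nr4a3 was at 240.5, 249, 363 and 467 in KI and 1019.5, 912, 858 and 610.0 in WT (log2 fold change -1.39 ± 0.22, adjusted p = 0.00627), Nr4a2 at 134, 159.9, 203 and 287 in KI and 524, 298, 504 and 471 in WT (log2 fold change -1.22 ± 0.24, adjusted p = 0.0167), and Fosl2, a Fos family member, at 243, 263, 406 and 559 in KI and 814, 844, 779.7 and 744 in WT (log2 fold change -1.19 ± 0.22, adjusted p = 0.0132). None of the 3 overlapped between groups. Their relative Nr4a1, an orphan nuclear receptor of the same family, was at 4114, 883, 1526 and 1846 in KI and 1904, 2503, 3126 and 3240.1 in WT, and its groups did overlap (log2 fold change -0.56 ± 0.37, adjusted p = 0.436). Jun rose (log2 fold change 0.64 ± 0.12, adjusted p = 0.0132) and so did Klf10, a zinc finger factor induced by growth factors, at 1425, 1380.0, 1180.3 and 1351 in KI and 910.4, 948, 842 and 849.8 in WT (log2 fold change 0.59 ± 0.074, adjusted p = 0.00283). Atf3, a stress-induced factor, rose at a low level, 19.7, 18, 18.4 and 6.09 in KI and 6.97, 2.14, 3.12 and 2.2 in WT, and overlapped (log2 fold change 1.84 ± 0.46, adjusted p = 0.0452). Without KI1, 2 higher and 6 lower were called, with Egr1 (-0.89 ± 0.21, adjusted p = 0.0353) and Nr4a1 (-0.96 ± 0.24, adjusted p = 0.0446) among those lower.

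Among products of activity-induced genes, 3 of 28 rose (10.7%) and 1 fell (3.57%). Nptx2, a secreted pentraxin that gathers AMPA receptors at synapses on interneurons, was at 4320.1, 1703, 2407 and 3247 in KI and 1056, 1129, 967 and 1050.0 in WT (log2 fold change 1.39 ± 0.22, adjusted p = 0.00673), and its paralog Nptx1 rose less (log2 fold change 0.44 ± 0.091, adjusted p = 0.0215). Inhba, the activin beta A subunit, was at 1267, 858, 493 and 530.4 in KI and 309.6, 396, 333 and 385 in WT (log2 fold change 1.04 ± 0.25, adjusted p = 0.0386). Pcsk1, a convertase that cleaves prohormones, went the other way, at 931, 833, 1234 and 1205 in KI and 2345, 2446, 2074 and 1775 in WT (log2 fold change -1.05 ± 0.14, adjusted p = 0.00308). Groups did not overlap in these 4 genes. Bdnf, a neurotrophin, was at 1361, 731, 738 and 1008 in KI and 716, 729.9, 567 and 454 in WT, above WT in all 4 KI libraries, but did not pass (log2 fold change 0.61 ± 0.21, adjusted p = 0.115). Without KI1 and KI2, 1 higher and 2 lower were called, and Nptx2 kept an adjusted p of 0.000802 and Pcsk1 of 0.00661.

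**Figure D2:**
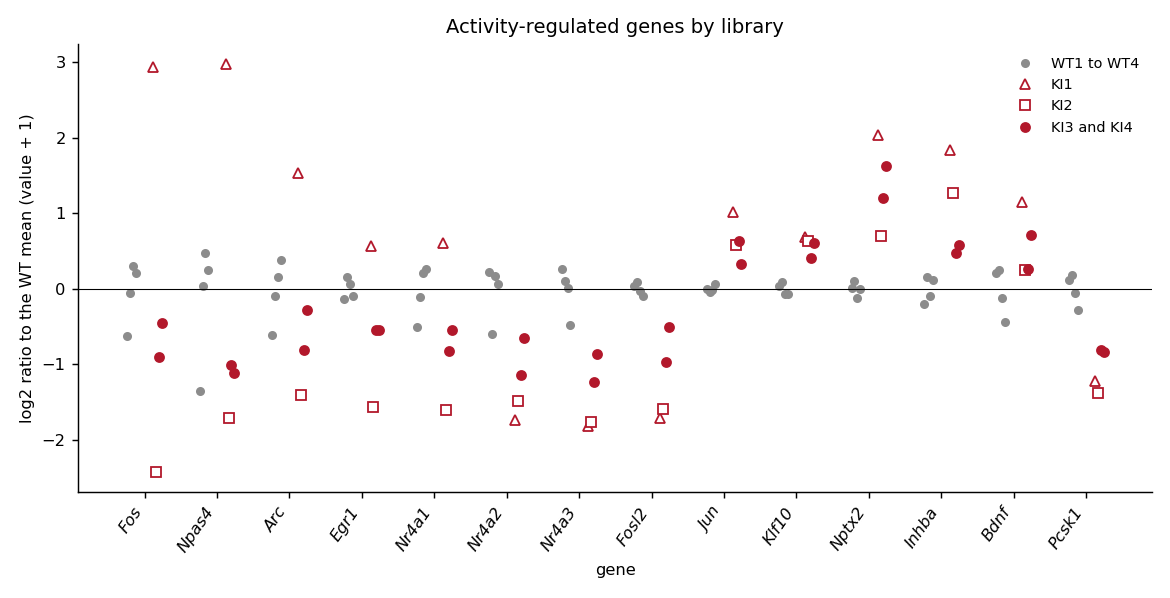
Log2 ratio of each library to the WT mean (y axis, value + 1) for activity-regulated genes (x axis), with each library a point, KI1 and KI2 drawn with their own symbols and WT in grey. Fos, Npas4, Arc and Egr1 spread widely among KI with KI1 on top, whereas Nr4a2, Nr4a3, Fosl2 and Pcsk1 lie below WT and Nptx2 and Inhba above WT in all 4 KI libraries.

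Promoters of activity-regulated genes are known for the cyclic AMP response element, the palindrome TGACGTCA bound by CREB. In RefSeq promoters of GRCm38.p6, taken from 250 bases before to 50 after each gene's start, it occurred on 588 of 32851 promoters (1.79%). By gene, 8 of 333 risers with a promoter held it (2.4%), 15 of 349 fallers (4.3%) and 421 of all 12905 tested (3.26%). Of listed genes with a promoter, 2 of 20 immediate early factors, 4 of 20 activity-induced effectors and 3 of 18 neuropeptide genes held it. The windows of 60 bases below are shown because they come from peptide and activity-induced genes that moved in opposite directions, with the palindrome in capitals. Genes of these lists that held it but were not called are not shown. Sst and Chgb rose, and Cartpt and Pcsk1 fell.
Sst (chr16:23890859-23890918, minus strand): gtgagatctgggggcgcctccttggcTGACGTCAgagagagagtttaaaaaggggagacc
Chgb (chr2:132781544-132781603, plus strand): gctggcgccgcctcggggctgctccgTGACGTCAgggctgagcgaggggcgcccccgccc
Cartpt (chr13:99900762-99900821, minus strand): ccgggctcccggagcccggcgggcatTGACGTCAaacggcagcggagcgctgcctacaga
Pcsk1 (chr13:75089753-75089812, plus strand): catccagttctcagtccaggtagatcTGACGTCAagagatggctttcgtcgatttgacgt
The fallers Nr4a2 and Nr4a3 held no full palindrome but 4 of its 5-base sites each, TGACG or its reverse complement CGTCA, as did Nr4a1. At least 4 5-base sites occurred in 0.231% of promoters and at least 1 in 20.8%. These sites are in capitals.
Nr4a2 (chr2:57124104-57124209, minus strand): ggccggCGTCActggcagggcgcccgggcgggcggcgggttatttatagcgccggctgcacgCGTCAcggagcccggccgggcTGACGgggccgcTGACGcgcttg
Nr4a3 (chr4:48045068-48045168, plus strand): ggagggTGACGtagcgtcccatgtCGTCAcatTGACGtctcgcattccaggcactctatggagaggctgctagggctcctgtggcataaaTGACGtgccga
Both strands were searched, and the palindrome itself contains both 5-base sites. A match describes the letters only, and binding was not measured.

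Neuropeptide genes changed in both directions. Of the precursors and granins, 5 of 23 rose (21.7%) and 4 fell (17.4%). Npy, an inhibitory peptide of interneurons, was at 3477, 2139.9, 2090.4 and 2121 in KI and 1484, 1384, 1481 and 1721 in WT (log2 fold change 0.66 ± 0.15, adjusted p = 0.0293), and Chgb, a granin of dense core vesicles, was at 14870.2, 14306, 12914 and 13689.7 in KI and 10131, 9805, 9216 and 9518 in WT (log2 fold change 0.53 ± 0.058, adjusted p = 0.00147). All 4 KI libraries lay above WT in both genes, and Npy was highest in KI1. Pdyn, the precursor of dynorphins, rose by 0.51 ± 0.072 and Sst, somatostatin, by 0.32 ± 0.068. Gal, galanin, rose from near 0, at 42.2, 15.9, 9.15 and 9.67 in KI and 0, 3.84, 2.13 and 0 in WT, so that its fold depends on the pseudocount. The fallers were lower in all 4 KI libraries. Cartpt, a peptide induced by stimulants, was at 12.9, 16.6, 23.4 and 21.4 in KI and 71.7, 50.6, 66.8 and 72.2 in WT (log2 fold change -1.78 ± 0.23, adjusted p = 0.00308). Grp, gastrin-releasing peptide, was at 23.6, 45, 79.7 and 102 in KI and 206, 215, 186 and 143 in WT (log2 fold change -1.75 ± 0.37, adjusted p = 0.0236), lowest in KI1, and Cort, the somatostatin relative cortistatin, was at 21.1, 19.9, 23.6 and 32.8 in KI and 62.3, 50.6, 52.2 and 48.6 in WT (log2 fold change -1.12 ± 0.21, adjusted p = 0.0146). Vip fell by a smaller amount, at 962, 800.2, 982 and 1008 in KI and 1267, 1332, 1163 and 1068 in WT (log2 fold change -0.36 ± 0.092, adjusted p = 0.0459). Penk, the enkephalin precursor that striatal neurons also express, was at 825, 2541, 522 and 386 in KI and 832, 821, 936 and 810.0 in WT, high in KI2, and did not pass. With KI1 and KI2 left out 3 higher and 4 lower were called, with Penk among those lower (-0.92 ± 0.12, adjusted p = 0.00505). Sst, Gal, Cort and Vip were not called in that fit (adjusted p = 0.115, 0.175, 0.0857 and 0.186). Of the 18 striatal neuron genes 1 was higher and 5 were lower there, against 1 and 0 in the main fit. Summed striatal genes were at 25529 in KI3, 23296 in KI4 and 27447 to 29275 in WT. Their part in the Penk result was not tested.

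Of peptide and opioid receptors, 5 of 30 rose (16.7%) and 1 fell (3.33%), against 4 higher and 2 lower without KI1 and KI2. Npy1r, the main neuronal receptor of Npy, was at 391, 599, 647 and 595 in KI and 1039.5, 1032, 941 and 961 in WT (log2 fold change -0.86 ± 0.14, adjusted p = 0.00691), so the peptide and this receptor moved in opposite directions, and Npy2r did not pass (-0.50 ± 0.22). Ntsr1, the neurotensin receptor of layer 6 neurons, was at 343, 347, 384 and 401 in KI and 225, 172, 182 and 194 in WT (log2 fold change 0.93 ± 0.11, adjusted p = 0.00161), and Oxtr, the oxytocin receptor, was at 319, 245, 314 and 237 in KI and 185, 170.2, 172 and 147 in WT (log2 fold change 0.71 ± 0.13, adjusted p = 0.0132). Groups did not overlap in these genes. Oprd1, the delta opioid receptor, rose by 0.60 ± 0.11 and Adcyap1r1, the PACAP receptor, by 0.42 ± 0.072, and Tacr3 rose at a low level (1.19 ± 0.25).

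Receptors of the amine and acetylcholine systems changed singly. Besides Drd4, the dopamine list held Ppp1r1b, the phosphatase inhibitor DARPP-32 that relays dopamine signals, at 8405, 9981, 4004 and 3878 in KI and 2043, 2194, 2545 and 2614 in WT (log2 fold change 1.36 ± 0.27, adjusted p = 0.0193). Ppp1r1b is also a striatal gene, and KI2 had the highest sum of striatal genes. KI1, KI3 and KI4 also lay above every WT library, and with KI1 and KI2 left out its log2 fold change was 0.75 ± 0.098 (adjusted p = 0.00505). Drd1 (0.20 ± 0.32) and Drd2 (0.20 ± 0.80) did not pass. Of the serotonin receptors 0 of 12 rose (0%) and 1 fell (8.33%), against 0 higher and 1 lower without KI1 and KI2, the faller being Htr1a, an inhibitory autoreceptor and heteroreceptor, at 289, 374, 496 and 415 in KI and 605, 634, 596 and 601 in WT (log2 fold change -0.65 ± 0.14, adjusted p = 0.0227), and Htr2a did not pass (-0.10 ± 0.21). Adra1b, a noradrenaline receptor coupled to Gq, rose (log2 fold change 0.57 ± 0.13, adjusted p = 0.0261), while Adra1a (0.011 ± 0.12) and the muscarinic receptor Chrm1 (-0.28 ± 0.11) did not pass. Chrna4, a nicotinic subunit, was at 591, 755, 935 and 859 in KI and 1494, 1356, 1369 and 1608 in WT (log2 fold change -0.91 ± 0.13, adjusted p = 0.00374), and its usual partner Chrnb2 was at 1618, 1858, 1820.1 and 1750.5 in KI and 1816, 1766, 1729.9 and 1708 in WT (log2 fold change 0.0037 ± 0.059, adjusted p = 0.982). All 4 KI libraries lay below WT in Chrna4, and the groups overlapped in Chrnb2. Ache, acetylcholinesterase, rose by 0.44 ± 0.068.

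Genes that make and load GABA rose. Gad2, which makes GABA at terminals, was at 11088, 7672, 6711 and 6162 in KI and 4647, 4887, 4513 and 4267 in WT (log2 fold change 0.75 ± 0.15, adjusted p = 0.0177), and Slc32a1, the vesicular GABA transporter, was at 1954, 2024, 1714 and 1917 in KI and 1493, 1439.7, 1489 and 1509 in WT (log2 fold change 0.36 ± 0.062, adjusted p = 0.0107). Gad1, which makes most GABA, rose less (log2 fold change 0.34 ± 0.074, adjusted p = 0.0251). No KI library of these 3 genes fell within the WT range. Of the list of 18, 3 of 18 rose (16.7%) and 1 fell (5.56%). Without KI1 and KI2 1 higher and 0 lower were called, that being Gad2 (adjusted p = 0.00692). None of the 15 GABA-A receptor subunits tested was called, including Gabrd (-0.45 ± 0.12, adjusted p = 0.0652). Glra2, a glycine receptor subunit, fell, at 217, 229, 256 and 159 in KI and 416, 346, 350.1 and 364 in WT (log2 fold change -0.79 ± 0.14, adjusted p = 0.0121), while Slc6a5 (2.35 ± 0.63) and Glra1 (2.08 ± 0.65), listed first for glycine, had low counts and did not pass. The chloride transporters held 0 DEGs of 14, with Slc12a5, the neuronal chloride extruder, at 14351, 14934, 17518 and 17648 in KI and 19988, 19695, 19149 and 18806 in WT (log2 fold change -0.27 ± 0.074, adjusted p = 0.0588) and Slc12a2 at -0.13 ± 0.12.

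Postsynaptic scaffold genes that changed mostly fell. Of the scaffold list, 1 of 41 rose (2.44%) and 12 fell (29.3%), and its median log2 fold change was -0.17. Homer2, which links metabotropic glutamate receptors to scaffolds, was at 1696, 1892, 2403 and 2421 in KI and 3176, 3584, 3412 and 3404 in WT (log2 fold change -0.71 ± 0.11, adjusted p = 0.00622). Shank1, a master scaffold of spines, was at 19184, 17372, 21135 and 18356 in KI and 22999.5, 24132, 25387 and 27394 in WT (log2 fold change -0.39 ± 0.075, adjusted p = 0.0158), and Shank3 was at 6794, 6283, 5986 and 5982 in KI and 7657, 7451, 8221 and 8519 in WT (log2 fold change -0.35 ± 0.063, adjusted p = 0.0131). The groups did not overlap in these 3 genes. Further fallers included Ankrd63, Magi3 (-0.46 ± 0.10), Begain (-0.43 ± 0.078), Psd, Dlgap3, Dlgap4, Sipa1l1 and Sipa1l2. Dlg4, which encodes PSD-95, was lower in all 4 KI libraries, at 21047, 19226, 21040.1 and 18129.5 in KI and 21808, 22281, 22535 and 24217 in WT, but did not pass (log2 fold change -0.20 ± 0.065, adjusted p = 0.113). Tanc1 alone of this list rose, at 1416, 1399.9, 933 and 1007 in KI and 541, 636, 767 and 684 in WT (log2 fold change 0.84 ± 0.15, adjusted p = 0.0122). With KI1 and KI2 left out 1 higher and 3 lower were called, the fallers being Ankrd63, Homer2 and Shank3, and 4 to 15 were lower with any 1 library left out. Summed over the list, KI libraries ran from 299240 to 322690 and WT from 341470 to 352320. Such separation was not particular to scaffolds. The chloride transporters, with 0 DEGs, ran from 48957 to 54065 in KI and from 57500 to 58155 in WT.

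Several calcium-dependent kinases and their partners also fell. In this list 2 of 46 rose (4.35%) and 10 fell (21.7%). Camk2a, the abundant kinase of spine plasticity, was at 84083, 92739, 111014 and 95844 in KI and 127200.0, 123566, 129402 and 145322 in WT (log2 fold change -0.46 ± 0.094, adjusted p = 0.0213), whereas Camk2b was at 28059, 27932, 26313 and 25836 in KI and 25566, 25021, 23914 and 24508 in WT (log2 fold change 0.13 ± 0.054, adjusted p = 0.212). The Camk2 inhibitor Camk2n1 was at 36622, 41449.5, 47367 and 45832 in KI and 62846, 66958, 66439.5 and 67337 in WT (log2 fold change -0.63 ± 0.083, adjusted p = 0.00308), and Camkk2, the kinase that activates Camk1 and Camk4, was at 6412, 7632, 8730.1 and 8227 in KI and 11800.2, 11788, 11118 and 11939.6 in WT (log2 fold change -0.60 ± 0.085, adjusted p = 0.00429). All 4 KI libraries lay below WT in these 3 fallers. Camk1g (-0.63 ± 0.14) and Camk4 (-0.46 ± 0.087) fell, and so did the protein kinase C genes Prkca and Prkcb. The 2 risers, Pde1a (0.45 ± 0.095) and Pde2a, are phosphodiesterases. Without KI1 and KI2 0 higher and 3 lower were called, namely Camk2n1, Camk4 and Camkk2, and 3 to 10 were lower with any 1 library left out.

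Of synaptic adhesion genes, 2 of 51 rose (3.92%) and 5 fell (9.8%), against 0 higher and 2 lower without KI1 and KI2. Cbln2, a secreted organizer that joins neurexins to postsynaptic receptors, was at 715, 629, 1008 and 750.1 in KI and 1671, 1648, 1527 and 1530.5 in WT (log2 fold change -1.06 ± 0.12, adjusted p = 0.00157), and Mdga1, which blocks neuroligin binding, was at 229, 291, 344 and 339.8 in KI and 484, 464, 578 and 527 in WT (log2 fold change -0.78 ± 0.13, adjusted p = 0.00955). Neither overlapped between groups. Lrfn2 fell (-0.41 ± 0.088), C1ql2 rose at a low level (1.55 ± 0.40), and Nlgn1 (0.17 ± 0.13) did not pass. Among AMPA and kainate receptors, 0 of 11 rose (0%) and 1 fell (9.09%), against 0 higher and 1 lower without KI1 and KI2. Gria3 was the faller, at 7691, 7164, 9184 and 7910.2 in KI and 11075, 11698, 10649 and 10587 in WT (log2 fold change -0.47 ± 0.075, adjusted p = 0.00691), while Gria1 (0.056 ± 0.072) and Gria2 (-0.16 ± 0.060) did not pass. Neto1, a kainate receptor partner, fell (log2 fold change -0.36 ± 0.087, adjusted p = 0.0373), and the auxiliary subunits Cacng2 (-0.039 ± 0.065) and Cacng3 (-0.21 ± 0.11) did not pass. The NMDA receptors, of which 8 were tested, and the metabotropic receptors, of which 7 were tested, held 0 DEGs each, with Grin1 at 0.10 ± 0.052, Grin2a at -0.077 ± 0.066 and Grm5 at -0.16 ± 0.12.

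**Figure D3:**
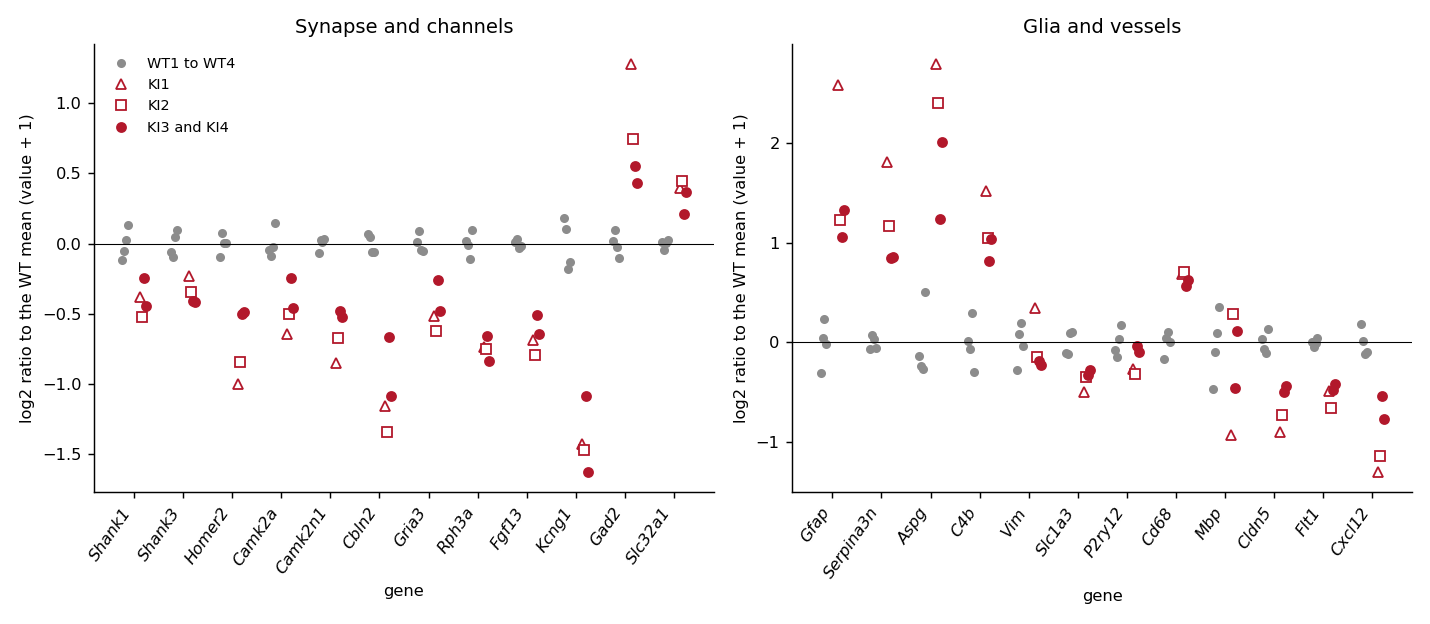
Log2 ratio of each library to the WT mean (y axis, value + 1) for synaptic genes (left panel) and glial and vascular genes (right panel) named in the text, with KI1 and KI2 drawn with their own symbols and WT in grey. The synaptic fallers lie below WT in all 4 KI libraries, and Gfap is highest in KI1 but above WT in all 4.

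Among release genes, 5 of 57 rose (8.77%) and 6 fell (10.5%). Rph3a, rabphilin, which binds Rab3 on synaptic vesicles, was at 10965, 10873, 11547 and 10214 in KI and 18478, 18093, 16874 and 19536 in WT (log2 fold change -0.74 ± 0.061, adjusted p = 0.00036). Syt6, a synaptotagmin, was at 2125, 2360.3, 1286 and 1061 in KI and 746, 764, 928 and 839 in WT (log2 fold change 0.99 ± 0.22, adjusted p = 0.0282), Amph, amphiphysin of endocytosis, rose by 0.55 ± 0.097, and Cplx3, a complexin, by 0.59 ± 0.14. The priming and fusion genes Unc13a, Unc13c, Rims1, Stx1a and Syt7 fell, and Syn1 (0.18 ± 0.069) and Syt1 (-0.079 ± 0.074) did not pass. With KI1 and KI2 left out 2 higher and 5 lower were called.

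Potassium channel genes moved both ways. Of the Kv subunits and partners, 5 of 45 rose (11.1%) and 6 fell (13.3%). Besides Kcng1, the fallers included Kcnip2, a partner of Kv4 channels, at 1176, 2512, 2272 and 2329 in KI and 3422, 3342, 3396 and 3305 in WT (log2 fold change -0.76 ± 0.19, adjusted p = 0.0476), and Kcnh4 (-0.88 ± 0.22). The risers included Kcng4, a silent subunit, at 747, 631, 263 and 300.5 in KI and 167, 175, 195 and 222 in WT (log2 fold change 1.22 ± 0.30, adjusted p = 0.0401), highest in KI1 and KI2. Kcna1, a channel of axons, did not pass (0.19 ± 0.074). Leaving out KI1 and KI2 gave 2 higher and 5 lower. Among other potassium channels 1 of 28 rose (3.57%) and 4 fell (14.3%), against 0 higher and 1 lower without KI1 and KI2, with Kcnt2, a sodium-activated channel, at 777, 809.5, 1044 and 989 in KI and 1307, 1490.5, 1344 and 1159 in WT (log2 fold change -0.56 ± 0.11, adjusted p = 0.0171) and Kcnk2, a leak channel, at 956, 1029, 1081 and 911 in KI and 1476, 1346, 1435 and 1468 in WT (log2 fold change -0.53 ± 0.068, adjusted p = 0.00302), while Kcnj10 (0.11 ± 0.16) and Kcnma1 (-0.081 ± 0.065) did not pass. Of all 85 genes with potassium channel names, 6 rose and 10 fell, against 2 and 6 without KI1 and KI2.

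Of sodium channel subunits and partners, 1 of 17 rose (5.88%) and 2 fell (11.8%), against 0 higher and 3 lower without KI1 and KI2. Fgf13, which binds sodium channels and microtubules, was at 2270.1, 2114, 2574 and 2348 in KI and 3692, 3740.3, 3577 and 3625 in WT (log2 fold change -0.66 ± 0.063, adjusted p = 0.000683), and Scn3b, an auxiliary subunit, was at 2545, 2572, 2940.3 and 2184 in KI and 4222, 4079, 3859 and 3260.2 in WT (log2 fold change -0.59 ± 0.099, adjusted p = 0.00905). Scn1a (-0.17 ± 0.070) and Scn8a (-0.10 ± 0.056) did not pass, and Scn7a, a sodium-sensing channel, rose (log2 fold change 0.76 ± 0.17, adjusted p = 0.0303). Of calcium channels 1 of 16 rose (6.25%) and 2 fell (12.5%), against 1 higher and 2 lower without KI1 and KI2. Cacna1g, a T-type channel, was at 7710.1, 7333, 5623 and 5681 in KI and 4508, 4195, 4377 and 4588 in WT (log2 fold change 0.56 ± 0.10, adjusted p = 0.0122), and Cacna1i, another T-type channel, was at 2788, 3124, 3013 and 3026 in KI and 3859, 3956, 3678 and 3940.3 in WT (log2 fold change -0.37 ± 0.054, adjusted p = 0.00512), so these 2 paralogs moved in opposite directions without overlap. Cacnb3, a beta subunit, fell (log2 fold change -0.52 ± 0.082, adjusted p = 0.00673), and the pores Cacna1c (-0.031 ± 0.060) and Cacna1a (-0.073 ± 0.070) did not pass. Of calcium stores, pumps and buffers 1 of 26 rose (3.85%) and 4 fell (15.4%), against 0 higher and 2 lower without KI1 and KI2. Scaling to equal totals gave 1 higher and 1 lower. Itpr1 (log2 fold change -0.34 ± 0.080, adjusted p = 0.0362), Ryr1 (-0.64 ± 0.13) and Atp2a3 (-0.49 ± 0.12) fell, and Ryr2 did not pass (0.068 ± 0.055). Ryr1 and Atp2a3 were not called without KI1 and KI2 (adjusted p = 0.114 and 0.0613). The HCN channels held 0 DEGs of 5, with Hcn2 at -0.077 ± 0.071.

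In bulk tissue fewer cells of a type and less RNA per cell cannot be told apart, which touches every marker below. Reactive astrocyte genes rose in part. Of the list, 5 of 33 rose (15.2%) and 0 fell (0%), with a median log2 fold change of 0.31. Gfap, the intermediate filament of reactive astrocytes, was at 12404, 4842, 4322 and 5221 in KI and 1675, 2141, 2433 and 2041 in WT (log2 fold change 1.56 ± 0.27, adjusted p = 0.0112). Serpina3n, a protease inhibitor, was at 1094, 702, 559 and 564 in KI and 298, 328, 319.6 and 300.0 in WT (log2 fold change 1.17 ± 0.18, adjusted p = 0.00627), and Aspg, an asparaginase, was at 604, 462, 205 and 352 in KI and 78.2, 73.3, 71.4 and 123 in WT (log2 fold change 2.15 ± 0.29, adjusted p = 0.00368). KI1 was the highest library in all 3, and the other KI libraries also lay above WT. C4b, a complement component, was at 1569, 1132, 969 and 1126 in KI and 551, 522, 674 and 444 in WT (log2 fold change 1.12 ± 0.15, adjusted p = 0.00347), Cd44 rose (log2 fold change 0.91 ± 0.20, adjusted p = 0.0282), and Vim was at 1095, 781, 759 and 735 in KI and 714, 912, 985 and 839.9 in WT (log2 fold change -0.044 ± 0.13, adjusted p = 0.898), with groups overlapping. Without KI1 and KI2 4 higher and 0 lower were called, and Gfap kept 1.21 ± 0.13 (adjusted p = 0.00271). Of homeostatic astrocyte genes, Slc1a3, a glutamate transporter, fell, at 14878, 16474, 16738 and 17289 in KI and 19486, 19402, 22433 and 22614 in WT (log2 fold change -0.36 ± 0.073, adjusted p = 0.0203), Aldh1l1, a folate enzyme used as a pan-astrocyte marker, rose (log2 fold change 0.34 ± 0.060, adjusted p = 0.0121), and the main glutamate transporter Slc1a2 did not pass (-0.094 ± 0.084).

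Microglial identity genes did not pass, with P2ry12 at 1173, 1132, 1383 and 1321 in KI and 1342, 1276, 1447 and 1596 in WT (log2 fold change -0.18 ± 0.088, adjusted p = 0.287) and Tmem119 at -0.13 ± 0.076. The only DEG of the 23 listed was Sparc, a matrix protein that endothelium and astrocytes also express, at 7463, 5554, 5304 and 4947 in KI and 3336, 3294, 3915 and 3964 in WT (log2 fold change 0.67 ± 0.12, adjusted p = 0.012). Among 33 activated microglia genes 2 rose, Cd68, a lysosomal protein, at 258, 260.4, 236 and 246 in KI and 142, 165, 171 and 160.3 in WT (log2 fold change 0.65 ± 0.10, adjusted p = 0.00627), and Gpnmb, a glycoprotein of phagocytes, at 200.5, 77.7, 119 and 107 in KI and 44.1, 32.4, 55.2 and 43.1 in WT (log2 fold change 1.45 ± 0.27, adjusted p = 0.0145), and 0 fell. Of complement genes 4 of 26 rose (15.4%) and 1 fell (3.85%), against 3 higher and 0 lower without KI1 and KI2. C1ra, a protease of the first component, was at 254, 322, 255 and 396 in KI and 91.5, 101, 135 and 109 in WT (log2 fold change 1.47 ± 0.17, adjusted p = 0.00157), and Masp1 (0.62 ± 0.085) and Srpx2, which blocks complement at synapses (1.03 ± 0.22), rose, while Cd59a, an inhibitor of lysis, fell (-0.58 ± 0.14). C1qa was at 1145, 982, 1020.3 and 1064 in KI and 924, 998, 1073 and 1149 in WT (log2 fold change 0.025 ± 0.080, adjusted p = 0.902). Antigen presentation held 0 DEGs of 23 (B2m 0.047 ± 0.049, H2-K1 0.18 ± 0.13) and interferon-stimulated genes 0 of 29 (Ifit1 0.073 ± 0.16, Irf7 0.35 ± 0.21).

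Myelin genes held 0 DEGs of 29, with Mbp at 31918, 74040.2, 44255 and 65794 in KI and 43699.5, 56506, 64899 and 77538 in WT, and of the oligodendrocyte precursor genes Cspg4 fell (log2 fold change -0.37 ± 0.067, adjusted p = 0.0132) while Pdgfra did not pass (-0.18 ± 0.084). Some vascular genes fell. Of the endothelial and pericyte list 0 of 30 rose (0%) and 5 fell (16.7%), with a median log2 fold change of -0.23. Cldn5, the tight junction protein of the blood-brain barrier, was at 394, 445, 520.1 and 542 in KI and 756, 700.4, 683 and 806 in WT (log2 fold change -0.64 ± 0.11, adjusted p = 0.00867), and Flt1, a VEGF receptor, was at 1477, 1312, 1491 and 1559 in KI and 2078, 2016, 2071 and 2148 in WT (log2 fold change -0.51 ± 0.063, adjusted p = 0.00239). Slco1c1, which carries thyroxine across the barrier, fell (log2 fold change -0.50 ± 0.090, adjusted p = 0.0131), and Pecam1 did not pass (-0.19 ± 0.093). With KI1 and KI2 left out 0 higher and 4 lower were called, namely Cldn5, Flt1, Slco1c1 and the VEGF receptor Kdr (-0.62 ± 0.11). The chemokine Cxcl12 was at 818, 914, 1389 and 1187 in KI and 2289.6, 2038, 1862 and 1885 in WT (log2 fold change -0.93 ± 0.15, adjusted p = 0.00662), and Sox17, a factor of arterial endothelium, was at 83.5, 94.6, 113 and 104 in KI and 208, 184, 148 and 184 in WT (log2 fold change -0.87 ± 0.14, adjusted p = 0.0083). Summed over the 30 genes, KI libraries held 23302 to 26591 and WT 27210 to 29929, without overlap, as was also so for the chloride transporters with 0 DEGs. The red cell gene Hba-a1 was at 724, 725, 1509 and 1049 in KI and 1351, 1614, 1385 and 2148 in WT, and all 5 hemoglobin and red cell genes had an unadjusted p under 0.05 while 0 were called, and their part in the result was not tested.

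Fibroblast and meningeal genes changed in part. Of the list, 3 of 17 rose (17.6%) and 1 fell (5.88%), against 4 higher and 1 lower without KI1 and KI2. Log2 fold changes were above 0 in 9 of the 17 and below 0 in 8. Dcn, decorin, was at 590.4, 377, 526 and 592 in KI and 284, 314, 282 and 239 in WT (log2 fold change 0.88 ± 0.15, adjusted p = 0.00831), Lum, lumican, at 223, 80.6, 134 and 162 in KI and 61.2, 69.1, 42.6 and 47 in WT (log2 fold change 1.36 ± 0.28, adjusted p = 0.0215), and Col1a1, fibrillar collagen, at 864, 296, 404 and 473 in KI and 205, 255, 249 and 162 in WT (log2 fold change 1.13 ± 0.27, adjusted p = 0.0394). All 4 KI libraries lay above WT in each, while Igf2, a growth factor of the leptomeninges, fell, at 630.3, 714, 949 and 1219.6 in KI and 1445, 1804, 1441 and 1277 in WT (log2 fold change -0.80 ± 0.18, adjusted p = 0.0316). Summed fibroblast and meningeal genes ran from 18341 to 31948 in KI and from 18669 to 25851 in WT. Of collagens and fibrous matrix, 5 of 43 rose (11.6%) and 2 fell (4.65%), against 2 higher and 1 lower without KI1 and KI2. Col18a1 rose (1.03 ± 0.21) but not without KI1 and KI2 (adjusted p = 0.0826), while Col4a1 did not pass (0.24 ± 0.13). Itga11, a collagen receptor, was at 234, 192, 175 and 144 in KI and 60.4, 48.1, 84.8 and 60.4 in WT (log2 fold change 1.55 ± 0.20, adjusted p = 0.00283) and was the only DEG among 34 integrins and laminins, where Itgb1 (0.020 ± 0.064) and Lamb2 (-0.19 ± 0.13) did not pass. Among matrix proteases and inhibitors 4 rose and 0 fell of 38, against 2 higher and 0 lower without KI1 and KI2. Timp2, an inhibitor of metalloproteinases, was at 16832, 11759.6, 11086 and 10251 in KI and 7347, 7414, 6738 and 6189 in WT (log2 fold change 0.83 ± 0.13, adjusted p = 0.00697), while Timp1 (1.08 ± 0.52) and Adamts1 (-0.34 ± 0.16) did not pass. In perineuronal nets, Hapln4, a link protein, was at 8130.2, 5809, 4595 and 5416 in KI and 3150.4, 3529.8, 2993 and 2952 in WT (log2 fold change 0.89 ± 0.14, adjusted p = 0.00673) and Crtac1 at 2046, 2193, 1542 and 2026 in KI and 1017, 1069.9, 1201 and 976 in WT (log2 fold change 0.86 ± 0.11, adjusted p = 0.00255), Cspg5 fell (-0.38 ± 0.068), and Acan (0.66 ± 0.18) and Hapln1 (0.17 ± 0.10) did not pass.

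Genes of cortical layers and of interneurons changed in both directions. Of the layer list 6 of 46 rose (13%) and 6 fell (13%). Fezf2, the selector of layer 5 output neurons, was at 696, 729, 948 and 788 in KI and 1267, 1322, 1114 and 992 in WT (log2 fold change -0.57 ± 0.11, adjusted p = 0.0189), and Crym, a thyroid hormone binder of deep layers, was at 639.7, 937, 1251 and 1022 in KI and 1977, 1856, 1594 and 1462 in WT (log2 fold change -0.87 ± 0.17, adjusted p = 0.0192). Otof, listed for upper layers, was at 382, 583, 1164 and 781 in KI and 1629, 1567, 1455 and 1495 in WT (log2 fold change -1.19 ± 0.26, adjusted p = 0.0251), lowest in KI1. Cux2, a factor of upper layers, was at 6214, 5068, 5586 and 6199 in KI and 3943, 4696, 4341 and 3731 in WT (log2 fold change 0.47 ± 0.086, adjusted p = 0.0144), and Nxph4, of subplate and layer 6b, was at 183, 165, 91.6 and 78.9 in KI and 41.4, 53.2, 64.4 and 63.5 in WT (log2 fold change 1.14 ± 0.27, adjusted p = 0.0389). Tbr1 did not pass (-0.21 ± 0.067). Of the interneuron list 6 of 37 rose (16.2%) and 2 fell (5.41%). Nos1, nitric oxide synthase, was at 3402, 2823, 3158 and 2428 in KI and 1789.6, 1865, 1649.8 and 1582 in WT (log2 fold change 0.77 ± 0.099, adjusted p = 0.00291), and Lamp5, of neurogliaform cells and upper layers, was at 2165, 2952, 3911 and 4205 in KI and 5563, 5699, 5162 and 5092 in WT (log2 fold change -0.75 ± 0.17, adjusted p = 0.0311), without overlap in either. Pvalb was at 912, 1056, 844 and 1161 in KI and 675, 769, 882 and 735 in WT (log2 fold change 0.37 ± 0.11, adjusted p = 0.0821). Without KI1 and KI2 the layer list gave 3 higher and 6 lower and the interneuron list 3 higher and 2 lower. Of hippocampal neuron genes that cortex also expresses, Wfs1 rose, at 5129.9, 4757, 5459.8 and 4544 in KI and 3196, 3373, 2604 and 2917 in WT (log2 fold change 0.72 ± 0.086, adjusted p = 0.002), and Fibcd1 fell, at 97.1, 107, 122 and 89 in KI and 244, 173, 247 and 229 in WT (log2 fold change -1.10 ± 0.15, adjusted p = 0.00347), while Prox1 did not pass (-0.14 ± 0.11). Choroid plexus genes held 0 DEGs of 14, with Ttr at 30.2, 127, 116 and 292 in KI and 275, 277, 116 and 243 in WT, and olfactory and thalamic genes 0 of 15, with Doc2g at -0.79 ± 0.29.

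Of neurofilament, microtubule and axon genes 1 of 37 rose (2.7%) and 3 fell (8.11%), against 1 higher and 1 lower without KI1 and KI2. Nefl (log2 fold change -0.33 ± 0.068, adjusted p = 0.0215) and Nefm (log2 fold change -0.49 ± 0.10, adjusted p = 0.0213), the light and medium neurofilament chains, fell, and Nefh, the heavy chain, rose, at 2529, 2102, 1874 and 2381 in KI and 1671, 1612, 1567 and 1615 in WT (log2 fold change 0.45 ± 0.086, adjusted p = 0.0161). Map1a, a microtubule-associated protein, fell (-0.34 ± 0.073). Their adjusted p-values without KI1 and KI2 were 0.119, 0.0789, 0.0626 and 0.131, so none of the 4 was called. Of guidance genes 3 of 64 rose (4.69%) and 3 fell (4.69%), against 1 higher and 1 lower without KI1 and KI2, with Sema4a at 4957, 4124, 3081 and 3230.0 in KI and 1906, 1952, 1983 and 1994 in WT (log2 fold change 0.95 ± 0.13, adjusted p = 0.00328), Sema5b at 248, 427, 338 and 317 in KI and 538, 667, 621 and 631 in WT (log2 fold change -0.91 ± 0.14, adjusted p = 0.00679), and Sema3a (-0.10 ± 0.10) and Plxna1 (-0.33 ± 0.10) not passing.

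Growth factor genes changed singly. Fgf10 was at 85.7, 108, 141 and 134 in KI and 244, 245, 228 and 228 in WT (log2 fold change -1.03 ± 0.15, adjusted p = 0.0056), Igfbp4, which binds insulin-like growth factors, at 4804, 4169, 3034 and 3280.4 in KI and 2025, 2263, 2176 and 2044 in WT (log2 fold change 0.82 ± 0.12, adjusted p = 0.00611), and Gfra1, a GDNF receptor, at 703, 696, 692 and 639.7 in KI and 1049, 944, 1034 and 1101 in WT (log2 fold change -0.59 ± 0.068, adjusted p = 0.00157). Ntrk2 (-0.20 ± 0.056) and Igf1 (0.43 ± 0.15) did not pass. Inhbb, the activin beta B subunit, fell, at 65.3, 74.8, 148 and 134 in KI and 223, 225, 224 and 212 in WT (log2 fold change -1.15 ± 0.24, adjusted p = 0.022), opposite to Inhba, and Smad9 rose (0.62 ± 0.11), while Tgfb1 (0.78 ± 0.25) and Tgfb2 (0.13 ± 0.11) did not pass. Of secreted Wnt inhibitors other than Frzb, Sfrp2 was at 113, 129, 67.9 and 54.8 in KI and 33, 27.8, 31.5 and 31.9 in WT (log2 fold change 1.44 ± 0.26, adjusted p = 0.0131), and Wnt5a (-0.23 ± 0.16) and Notch1 (-0.21 ± 0.084) did not pass. Cell cycle genes held Ccnd2, a D-type cyclin, at 1751, 1310.0, 1702 and 1515 in KI and 2513, 2517, 2547 and 2353 in WT (log2 fold change -0.67 ± 0.086, adjusted p = 0.00291), the inhibitor Cdkn1c, which fell (-0.99 ± 0.25), and Mcm6, a replication helicase subunit, at 475, 360.1, 375 and 256 in KI and 161, 182, 183 and 181 in WT (log2 fold change 1.02 ± 0.16, adjusted p = 0.00673), whereas Mki67 (0.22 ± 0.36) and Top2a (0.11 ± 0.43) overlapped. Of cell death genes and p53 targets 1 of 40 rose (2.5%) and 5 fell (12.5%), against 1 higher and 1 lower without KI1 and KI2. Bax, which promotes apoptosis, did not pass (0.037 ± 0.074).

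Of genes that respond to corticosteroids, 4 of 26 rose (15.4%) and 1 fell (3.85%), against 2 higher and 0 lower without KI1 and KI2, where Hif3a, Fkbp5 and Nr3c1 were not called (adjusted p = 0.174, 0.162 and 0.137). Cdkn1a, a cell cycle inhibitor, was at 1137, 692, 660.0 and 658 in KI and 399, 417, 433 and 337 in WT (log2 fold change 0.95 ± 0.16, adjusted p = 0.0107), Angptl4, a lipase inhibitor, at 88.3, 72.2, 110.3 and 97.8 in KI and 42.8, 37.9, 56.3 and 43.1 in WT (log2 fold change 1.02 ± 0.19, adjusted p = 0.0134), Hif3a rose (0.72 ± 0.17), Fkbp5, a chaperone of steroid receptors, rose (log2 fold change 0.52 ± 0.11, adjusted p = 0.0266), and the glucocorticoid receptor Nr3c1 fell (log2 fold change -0.35 ± 0.074, adjusted p = 0.023). Sgk1 was at 3509, 3071, 2233 and 2586 in KI and 1696, 1672, 2547 and 1546 in WT, with WT3 among the KI values, and did not pass (log2 fold change 0.62 ± 0.17, adjusted p = 0.0572). Of clock genes 0 of 23 rose (0%) and 2 fell (8.7%), against 0 higher and 1 lower without KI1 and KI2, Arntl, the activator BMAL1, being at 650.4, 774, 842 and 768 in KI and 1166, 1188, 1089 and 1101 in WT (log2 fold change -0.59 ± 0.082, adjusted p = 0.00382), Cry2 at -0.27 ± 0.057, and Per2 (-0.25 ± 0.092) and Dbp (-0.14 ± 0.11) not passing. Antioxidant genes held 3 risers and 0 fallers of 34, against 3 higher and 0 lower without KI1 and KI2, with Hmox1, heme oxygenase, at 260.3, 147, 172 and 177 in KI and 99.2, 109, 103 and 90.4 in WT (log2 fold change 0.88 ± 0.17, adjusted p = 0.0166) and Srxn1, sulfiredoxin, at 4370.2, 3698, 3323 and 3148 in KI and 2592, 2422, 2214 and 2552 in WT (log2 fold change 0.56 ± 0.097, adjusted p = 0.0102), while their regulator Nfe2l2 did not pass (-0.14 ± 0.079).

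Lists of core metabolism and protein synthesis held few DEGs. Mgll, which degrades the endocannabinoid 2-arachidonoylglycerol, was at 5832, 5925, 6410.1 and 6358 in KI and 8555, 8381, 8623 and 9583 in WT (log2 fold change -0.52 ± 0.059, adjusted p = 0.00157), Slc16a1, a lactate transporter, rose by 0.32 ± 0.074 and Pdk1, a brake on pyruvate oxidation, by 0.32 ± 0.055. Nuclear genes of oxidative phosphorylation held 0 DEGs of 72, cholesterol genes 0 of 39, the unfolded protein response 0 of 40 and proteasome and ubiquitin genes 0 of 36, with 9, 8, 10 and 2 of them at an unadjusted p under 0.05. Cytosolic ribosomal proteins held 1 faller of 81, Rps21 (-0.29 ± 0.073), splicing regulators 1 of 83, Rbfox1 (-0.27 ± 0.066), and translation factors 1 of 48, Eif4ebp2. In these lists 18, 17 and 2 genes had an unadjusted p under 0.05. Log2 fold changes were below 0 in 68 of the 81 and 60 of the 83, against 9260 of 18367 genes tested. KI1 was the lowest library in 55 of the 81 and 35 of the 83, against 22.8% of all genes. The medians of these 2 lists were -0.088 and -0.054, and -0.021 and -0.020 without KI1 and KI2. Summed splicing regulators ran from 469820 to 498440 in KI and from 501590 to 511580 in WT, while sums of ribosomal proteins overlapped. Of chaperones Dnajb1 (log2 fold change -0.49 ± 0.098, adjusted p = 0.0191) and Hspa2 (-0.51 ± 0.13) fell, and Hspa8 did not pass (-0.13 ± 0.081). Hdac9, a histone deacetylase, fell (log2 fold change -0.67 ± 0.13, adjusted p = 0.0193), and Tet1, which oxidizes methylated cytosine, rose (log2 fold change 0.61 ± 0.11, adjusted p = 0.0132). The ribosomal, splicing, translation, chaperone and chromatin lists held 0 DEGs in limma without KI1 and KI2.

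**Figure D4:**
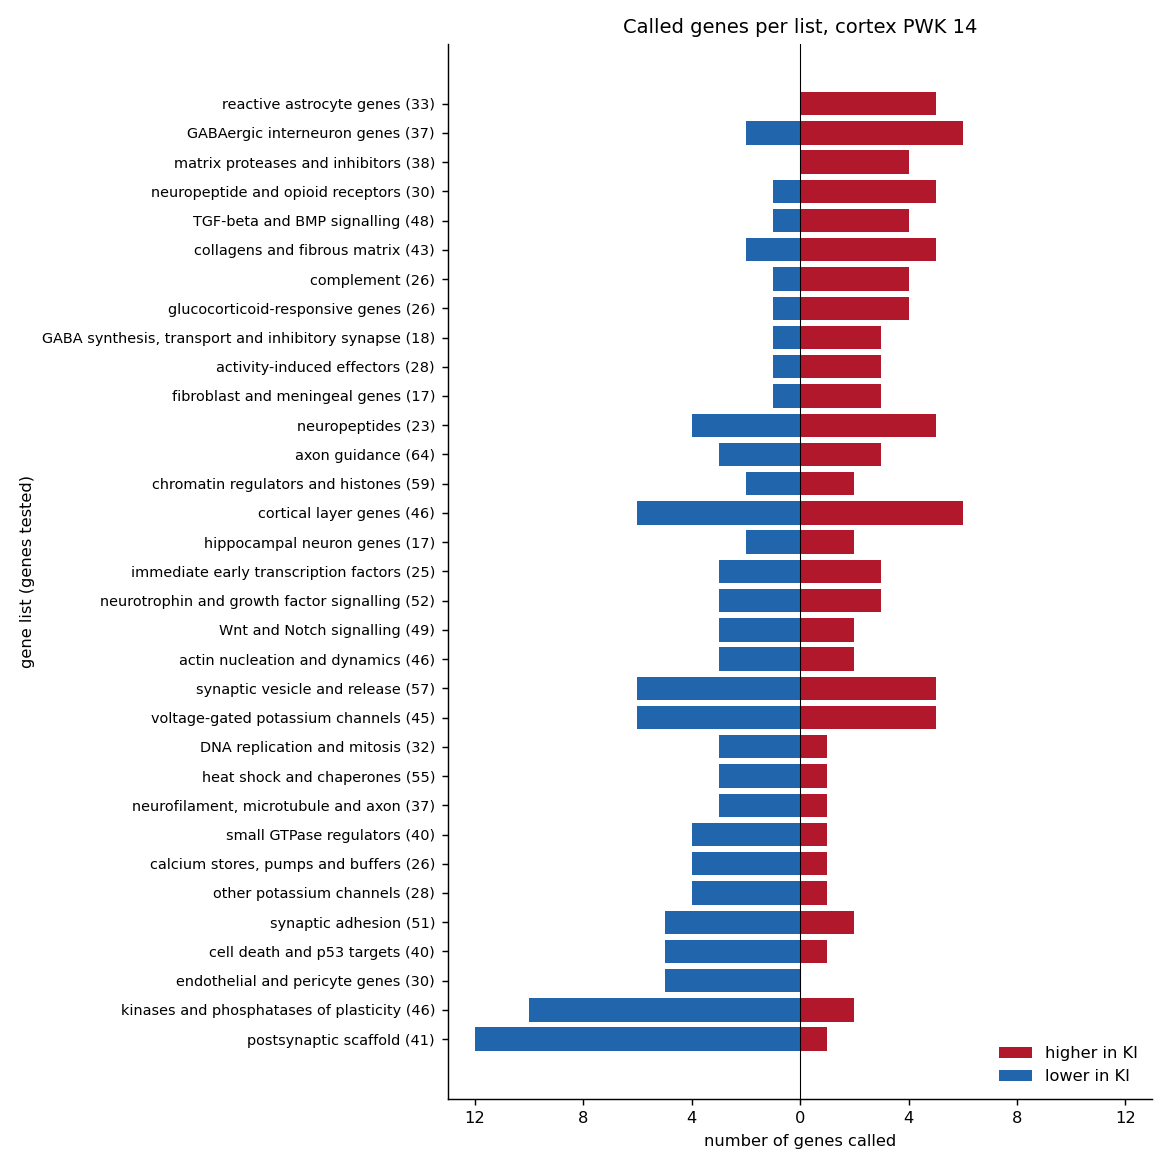
Number of DEGs in each gene list with at least 4 of them, higher in KI to the right of 0 and lower to the left (x axis, genes), with the number of genes tested beside each list's name. Postsynaptic scaffolds (1 higher, 12 lower) and plasticity kinases (2 higher, 10 lower) point down, and reactive astrocyte genes (5 higher, 0 lower) point up.

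Among families set by gene symbols, solute carriers held 22 risers of 280 (7.86%) and 9 fallers (3.21%), and 10 and 2 with KI1 and KI2 left out. Slc26a10, an anion transporter relative, was at 406, 387, 172 and 314 in KI and 111, 86.3, 75.5 and 170.2 in WT (log2 fold change 1.52 ± 0.30, adjusted p = 0.0173). Zinc finger proteins, 445 in all, held 1 riser and 4 fallers (0.225% and 0.899%), against 1 and 2 without KI1 and KI2. Clustered protocadherins held 0 DEGs of 55 and kinesins 0 of 37. Pcdh15, a protocadherin of hair cell tip links, was at 1500.1, 1749, 1398 and 1673 in KI and 993, 927, 1105 and 842 in WT (log2 fold change 0.71 ± 0.096, adjusted p = 0.00342), Tuba8, an alpha tubulin, at 454, 419.5, 402 and 499 in KI and 243, 251, 315 and 278 in WT (log2 fold change 0.71 ± 0.11, adjusted p = 0.00619), and Klhl40, a kelch protein known from muscle, at 533, 492, 478 and 349 in KI and 179, 164, 161 and 162 in WT (log2 fold change 1.45 ± 0.13, adjusted p = 0.000507), without overlap in any. Cyp1b1, a cytochrome P450 of perivascular cells, rose (log2 fold change 1.22 ± 0.27, adjusted p = 0.0282). Of 2082 predicted genes 15 rose and 15 fell, against 3 and 7 without KI1 and KI2. The values of 2 called pseudogenes of this family are uncertain, since reads of near-identical copies cannot be assigned to one of them. Gm10222, of which the GRCm38 annotation gives 294 bases on chromosome 1, was at 0, 0, 0 and 76.9 in KI and 4477, 3824, 5594 and 5266 in WT, and Gm9531 was listed at 0 in all 4 KI libraries and at 49.5, 136, 69.9 and 42.5 in WT. Across the 64 libraries Gm10222 was listed at 0 in 18, 9 of each genotype, and above 1000 in 40.

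The same contrast was set beside 3 others that share no library with it. At PWK 7 in cortex 1 of 18358 genes was called (0.00545%), at PWK 28 in cortex 4081 of 18387 (22.2%), and in hippocampus at PWK 14 2870 of 18405 (15.6%). Whether the KI effect differed was tested by interaction terms. Between PWK 7 and 14 the effect differed in 584 of 18383 genes (3.18%), 234 with a more positive effect at PWK 14. Between PWK 14 and 28 it differed in 0 of 18398 (0%), although 2770 genes had an unadjusted p under 0.05, and without KI1 of PWK 14 the number was 503. Between cortex and hippocampus at PWK 14 it differed in 525 of 18424 (2.85%), 222 with a more positive effect in cortex, and the number ran from 100 to 1032 when 1 replicate number of a genotype was left out in both regions, the lowest without WT1 and the highest without KI1. With that number as a replicate block across regions it was 876, although no source used here says that same-numbered libraries of the 2 regions came from 1 mouse.

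Cyfip2 was among the genes that differed by age. Its effect was 0.11 ± 0.034 at PWK 7, -0.33 ± 0.086 at PWK 14 and -0.44 ± 0.087 at PWK 28, and the PWK 14 minus 7 difference was -0.43 ± 0.093 (adjusted p = 0.0168), whereas the difference from hippocampus, where it was -0.20 ± 0.16, did not pass (-0.12 ± 0.19, adjusted p = 0.787). Other genes named above differed as well. Nptx2 had an effect of -0.26 ± 0.075 at PWK 7 (PWK 14 minus 7 difference 1.65 ± 0.26, adjusted p = 0.00207), Nr4a3 of 0.42 ± 0.14 (-1.82 ± 0.28, adjusted p = 0.00212), Drd4 of 0.37 ± 0.41 (3.36 ± 0.54, adjusted p = 0.00288), Gfap of 0.068 ± 0.096 (1.49 ± 0.32, adjusted p = 0.0169) and Cbln2 of 0.010 ± 0.064 (-1.07 ± 0.15, adjusted p = 0.000806). The smallest p-values of this interaction belonged to Spred3 (-0.81 ± 0.076), Ecel1 (2.83 ± 0.29), B3gat1, which makes the HNK-1 sugar epitope (-0.72 ± 0.075), Sbk1 (-0.57 ± 0.063) and Klhl40 (1.45 ± 0.16). At PWK 28 the same genes had effects of -0.54 ± 0.10, 3.17 ± 0.32, -0.51 ± 0.068, -0.55 ± 0.065 and 1.92 ± 0.35. The genes nearest to a difference between PWK 14 and 28 were Mat2a (0.47 ± 0.072), Ccdc134 (0.94 ± 0.15), Tsc22d3, a glucocorticoid target (0.75 ± 0.13), Rasd1 (1.77 ± 0.31) and CT025671.1 (-1.59 ± 0.28), each with an adjusted p of 0.0749.

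Several genes had opposite effects in the 2 regions. Fosl2 was -1.19 ± 0.22 in cortex and 0.92 ± 0.17 in hippocampus (difference -2.11 ± 0.30, adjusted p = 0.00205), Grp was -1.75 ± 0.37 and 1.11 ± 0.17 (-2.86 ± 0.46, adjusted p = 0.00449), and Nefm was -0.49 ± 0.10 and 0.50 ± 0.094 (-0.99 ± 0.15, adjusted p = 0.00261). Pcsk1 was -1.05 ± 0.14 in cortex and 0.70 ± 0.29 in hippocampus, the latter not called (-1.75 ± 0.35, adjusted p = 0.0151). Nr4a2, by contrast, was -1.22 ± 0.24 and -0.98 ± 0.16, with no difference that passed (-0.24 ± 0.32, adjusted p = 0.742). Npy, Nptx2 and Inhba rose in both regions and more in hippocampus, by 3.14 ± 0.34, 3.18 ± 0.30 and 3.20 ± 0.22, with differences of -2.47 ± 0.41 (adjusted p = 0.00521), -1.79 ± 0.41 (adjusted p = 0.0314) and -2.16 ± 0.37 (adjusted p = 0.00654). Of the 28 activity-induced effectors 7 had a more negative effect in cortex and 0 a more positive one, against 303 and 222 of all 18424 genes. Other genes fell in cortex and did not pass in hippocampus. Kcng1 was 0.24 ± 0.15 there (-1.63 ± 0.21, adjusted p = 0.000898), Rph3a -0.010 ± 0.086 (-0.73 ± 0.11, adjusted p = 0.00205), Fgf13 -0.12 ± 0.085 (-0.54 ± 0.11, adjusted p = 0.0151) and Diras2 0.0081 ± 0.063 (-0.84 ± 0.082, adjusted p = 0.000105). Htra4 (1.74 ± 0.33, adjusted p = 0.0118), Atp2c2 (2.13 ± 0.44, adjusted p = 0.0168) and Gpr139 (3.02 ± 0.58, adjusted p = 0.0136) had a more positive effect in cortex. The somatostatin receptor Sstr2, not called in cortex at -0.29 ± 0.11, was 1.73 ± 0.13 in hippocampus and had the smallest p along with Gm11549 (-2.02 ± 0.17 and -1.92 ± 0.16, adjusted p = 2.21e-05 for both). Cldn22 (5.66 ± 0.63), at low counts, and Lrrc55 (-1.66 ± 0.19), a partner of calcium-activated potassium channels, completed the first 5 with Diras2.

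In some lists members differed between the 2 regions. Over all genes, 455 of 18367 rose and 496 fell in cortex, and 1407 of 18405 rose and 1463 fell in hippocampus. By the interaction test 303 of 18424 had a more negative and 222 a more positive effect in cortex. Reactive astrocyte genes had 5 risers of 33 in cortex and 20 in hippocampus, with median log2 fold changes of 0.31 and 1.68, and 5 of the 33 had a more negative effect in cortex by the interaction test. Gfap was 1.56 ± 0.27 and 2.75 ± 0.32, a difference that did not pass (-1.19 ± 0.47, adjusted p = 0.187). Cholesterol genes had 0 DEGs in cortex and 17 risers and 2 fallers in hippocampus, and 7 of 39 differed. In the clock list 4 of 23 genes differed, Per3, Nr1d2, Tef and Ciart, which were -1.08 ± 0.18, -0.85 ± 0.15, -0.83 ± 0.092 and -0.94 ± 0.19 in hippocampus and -0.0031 ± 0.076, -0.077 ± 0.055, 0.016 ± 0.062 and 0.21 ± 0.13 in cortex. Postsynaptic scaffolds had 12 fallers of 41 in cortex and 8 in hippocampus, and 1 differed. Flt1 was -0.51 ± 0.063 in cortex and -0.084 ± 0.084 in hippocampus (-0.43 ± 0.11, adjusted p = 0.0391), and Cldn5 was -0.64 ± 0.11 and 0.089 ± 0.22 (-0.73 ± 0.26, adjusted p = 0.151).

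**Figure D5:**
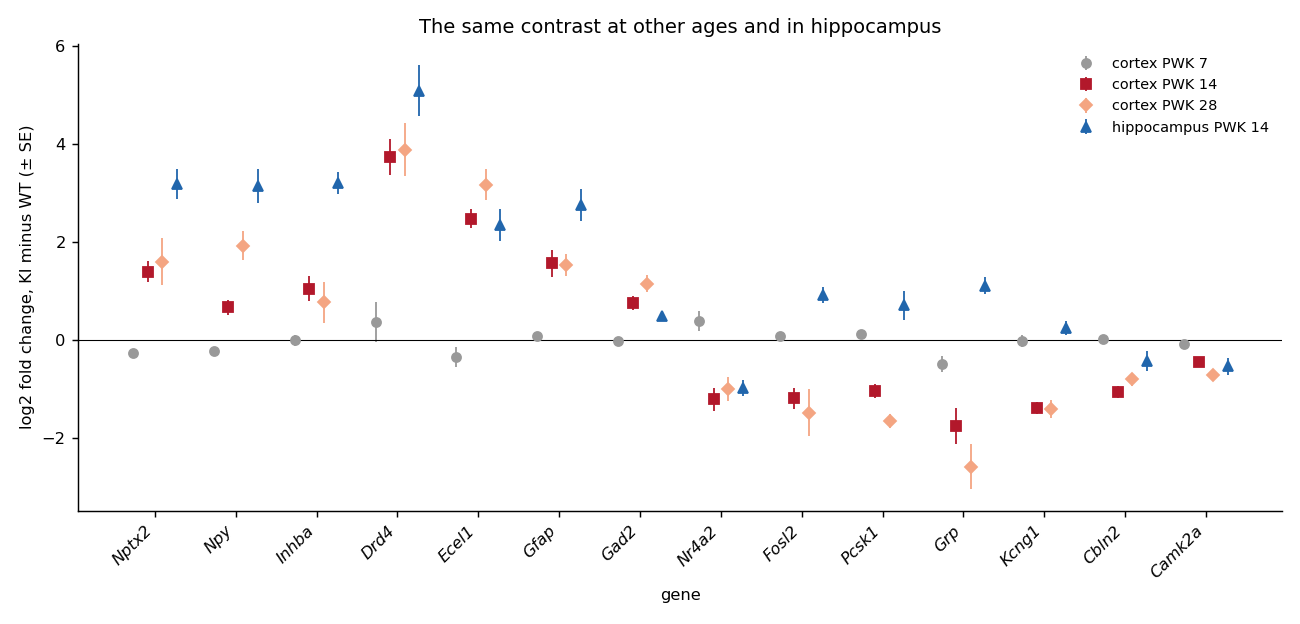
Log2 fold change KI minus WT (y axis, bars are ± SE) of 14 genes named in the text in cortex at PWK 7, 14 and 28 and in hippocampus at PWK 14. The 14 genes were picked from the DEGs of cortex at PWK 14. In all 14 the values of cortex at PWK 14 and 28 share a sign, and the share over all DEGs is not given here. Fosl2 and Grp point the other way in hippocampus, as does Pcsk1, which was not called there.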

How the data were processed

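RNA of frontal cortex from 4 KI and 4 WT mice at PWK 14 was sequenced on 101-base paired ends from stranded libraries. The authors quantified reads with Salmon against GRCm38 and scaled the estimated counts with DESeq2 (versions 0.11.2 and 1.19.11 in the submitters' processing notes, with R 3.6.0, while other versions appear in the study's methods). The deposited values are normalized counts, a signal in which depth has been divided out and is unknown, so precision could not be set by counting intervals. Whole reads were not recovered, since at the best step size 26.38% to 38.39% of values under 30 came out whole within 0.1 read, where unrelated values would give 20% at any 1 step, so no count model was run. Whether strand was used in counting is not given in the sources used here.

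Samples were grouped by their labels. Genes with a mean of at least 1 over the 8 libraries were tested on log2(value + 1) with limma 3.58.1 in R 4.3.3 (trended prior, Benjamini-Hochberg adjustment over all genes, called at an adjusted p under 0.05). The fold change of low genes is understated on this scale. Interactions were fitted on 16 libraries each. Where the planned design had allowed for counts, the test for normalized values was used instead. Gene names came from the GRCm38 annotation for 18420 of 18432 identifiers. Plots and tables used Python 3.11.15, pandas 2.3.3 and matplotlib 3.10.9.

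The 75 gene lists and 40 symbol families, like the comparison itself, were chosen with earlier results of these data known. Named were Cyfip2, up to 12 protein-coding DEGs per direction with the largest change, no overlap and a mean of at least 50 in whichever group was higher, up to 4 DEGs with such a mean and the first 2 genes of each list, up to 2 such DEGs of each family, and the 5 genes with the smallest p of each interaction. Chosen after their values were seen were Actn4, Adcyap1r1, Atf3, Begain, C1ql2, Cd44, Cd59a, Chgb, Ciart, Crym, Cux2, Ddx3y, Dlgap3, Dlgap4, Eomes, Fezf2, Gal, Kdr, Klf10, Npas4, Nr1d2, Nr3c1, Nr4a1, Pde1a, Pde2a, Pdyn, Penk, Per3, Prkca, Prkcb, Psd, Rims1, Shank1, Sipa1l1, Sipa1l2, Slc17a7, Stx1a, Syt7, Tacr3, Tef, Unc13a, Unc13c and Vip. Some genes that the rule names are not reported here. Alternatives were other scalings, pseudocounts of 0.5 and 5, other filters, other sets of libraries, array weights, another prior, a correction for GC content and length, a replicate block, each library left out and, added after the data were seen, KI1 and KI2 both left out.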

Additional observations from a re-analysis of the deposited data

Results flagged for a closer look

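In 20 of 272 groups of 4 libraries whose values are given by library, the highest or lowest library stood far from the others. Chance alone flags about 1 in 20 such groups. In KI1 the outlying values were Fos at 5303, Npas4 at 8654, Gfap at 12404, Npy at 3477, Cdkn1a at 1137 and Vim at 1095 normalized counts, each the highest of its group. In KI2 they were Drd2 at 554 and Gpr139 at 495, both high. Eomes was high in KI3 at 65.9 and in WT3 at 99.3. KI4 was low in Atf3 at 6.09 and in Gfra1 at 639.7, and high in Gm10222 at 76.9. Among WT, WT1 was high in Klhl40 at 179 and low in Mcm6 at 161 and Pak6 at 2654, WT2 was low in Htra4 at 24, WT3 was high in Sgk1 at 2547, and WT4 was high in Aspg at 123 and low in Inhbb at 212.

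The KI effect differed between cortex and hippocampus at PWK 14 in 525 genes and between PWK 7 and 14 in cortex in 584, by limma interaction terms with an adjusted p under 0.05. Of the genes named, the difference cortex minus hippocampus in log2 fold change was positive in Cldn22 (5.66), Gpr139 (3.02), Atp2c2 (2.13), Htra4 (1.74) and negative in Grp (-2.86), Npy (-2.47), Inhba (-2.16), Fosl2 (-2.11), Sstr2 (-2.02), Gm11549 (-1.92), Nptx2 (-1.79), Pcsk1 (-1.75), Lrrc55 (-1.66), Kcng1 (-1.63), Nefm (-0.99), Diras2 (-0.84), Rph3a (-0.73), Fgf13 (-0.54), Flt1 (-0.43). The difference PWK 14 minus 7 was positive in Drd4 (3.36), Ecel1 (2.83), Nptx2 (1.65), Gfap (1.49), Klhl40 (1.45) and negative in Nr4a3 (-1.82), Cbln2 (-1.07), Spred3 (-0.81), B3gat1 (-0.72), Sbk1 (-0.57), Cyfip2 (-0.43).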

How the results depend on the processing

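The number of DEGs, 951, stayed within 1.5 times that value with total-sum scaling, either pseudocount, either filter, array weights, the GC and length correction, the fit of the 16 libraries of PWK 14 and the replicate block. It was 1952 with all 64 libraries in 1 fit, 213 with a robust prior without trend, 408 without KI1 and KI2, and 339 to 1001 with 1 library left out, lowest without WT1 and highest without KI3. DEGs in the lists numbered 228 and were 384, 51, 134 and 109 to 253 in the same settings. Of the genes named in the text 178 were called, and 60 with the robust prior and 111 to 175 with 1 library left out, and 0 of the named genes changed sign where it was called. The region interaction, 525 genes, gave 100 to 1032 with 1 replicate number left out and was within 1.5 times only without KI4. With 1 library of PWK 14 left out, the interaction of PWK 7 and 14, 584 genes, gave 392 to 885, the highest without KI3, and that of PWK 14 and 28, 0 genes, gave 0 to 503, the highest without KI1. The cause was not tested in any of these. Fewer libraries also leave fewer degrees of freedom.

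With the replicate block the comparison gave 711 DEGs, 637 of them shared with the 951 in the same direction, and the region interaction with the replicate number of a genotype as a replicate block across regions gave 876 genes. The numbers share no stated litter or day between KI and WT. Over 12617 genes, deviations of same-numbered KI and WT libraries correlated at -0.122 to -0.031, with 0 of 4 over 0.1. Tests on whole counts were not run, because the values are not counts.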
